A study of Mus musculus with 3 samples.

Results

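CD8 T cells recovered from mouse brains with metastases were described from 1 CITE-seq experiment, in which RNA and antibody-tagged surface proteins are read from the same droplet. The cells were chosen in the matrix of the brain with metastases by corrected unique molecular identifiers (UMIs): Cd3d, Cd3e and Cd3g summed to 3 or more, Cd8a and Cd8b1 summed to 2 or more, Cd4 was 0 and the epithelial keratin gene Krt8 was at most 3. The rule found 516 of 5933 cells, or 8.70% (exact Clopper-Pearson 95% interval 7.99 to 9.44%), and the whole series held 11510 cells. Intervals here cover counting error only.

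The mice were females of 2 to 3 months on a C57Bl/6 background, of the genotypes Cx3cr1CreERT-ROSA-iDTR or Cx3cr1CreERT. All carried Cx3cr1CreERT, a tamoxifen-inducible Cre driven by the locus of a chemokine receptor found on microglia and monocytes. Mice of both genotypes received tamoxifen and, after a pause, diphtheria toxin, and the toxin depleted microglia in those that also carried the Cre-dependent toxin receptor ROSA-iDTR. Metastases came from E0771, a mouse mammary carcinoma line, injected into the carotid artery about 2 weeks before collection. The groups used below are the CD8 T cells of the brain with metastases, and as references the CD4 T cells of that brain, the CD8 T cells of the naive brain (no tumour) and those of the blood of mice with metastases. Brain cells had been enriched on Percoll, so shares are of recovered cells. The deposited annotation used here does not cover the matrix of the brain with metastases, so its depleted and control mice were not told apart and it counts as 1 pooled sample. No test between conditions was therefore possible, and no p-value is given.

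CD8 T cells recognise peptides on MHC class I through the T cell receptor, which signals through the CD3 chains, with the CD8 chains as co-receptor. Activated cells kill with perforin, which opens the target membrane, and with granzymes, the proteases that enter through it. Receptors such as PD-1, encoded by Pdcd1, restrain T cells after repeated stimulation, and in tumours they mark cells that have met antigen. Cells that keep Tcf7, a transcription factor of naive and memory T cells, tend to hold less of the killing programme.

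The surface proteins that define the lineage were read as 15-base antibody tags, shown because they are an independent definition of a CD8 T cell in the matrices with surface gates.
CD3: gtatgtccgctcgat
CD8a: tacccgtaatagcgt
CD4: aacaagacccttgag
In the naive brain, all 154 cells in the authors' CD8+ gate met the RNA rule, and 0 of 39 cells in their CD4+ gate did. The rule was wider than the gate there, since it found 399 cells and 218 of them lay in no T cell gate. In the blood, 67 of 80 cells in the CD8+ gate and 0 of 71 in the CD4+ gate met the rule.

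The marker genes were present as the label says. The summed CD3 genes ran from 3 to 105 UMIs per cell with a median of 29, and the summed CD8 genes from 2 to 66 with a median of 15. Both CD8 chains were detected in 469 cells (90.9%), Cd8a alone in 26 and Cd8b1 alone in 21. These values chose the cells and support nothing. Just inside the limit lay 28 cells with a CD8 sum of 2, and just outside 11 with a sum of 1, while 2 cells had a CD3 sum of 3 and 1 had a sum of 2. Nkg7, a granule protein gene of killer lymphocytes that the rule did not use, was at 8.84 counts per 10000 corrected UMIs (CP10k) in the 28 cells and 5.70 CP10k in the 11.

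Droplets shared between matrices and RNA of other cells touch every result. Of the 516 cells, 130 (25.2%) had a barcode that was also listed in the naive brain or the blood. The 95 listed in the naive brain had a median of 18237 raw UMIs there, against 8179 over its CD8 T cells. The 44 listed in the blood had a median of 21561 raw UMIs there, against 11952 over its CD8 T cells. Barcodes listed in more than 1 matrix were also held by 119 of the 399 CD8 T cells of the naive brain and 67 of the 105 of the blood. Among these, 89 in the naive brain (22.3% of its CD8 T cells) and 39 in the blood (37.1%) had the barcode of a cell among the 516. Such barcodes stand on both sides of those comparisons, and values of single genes include them unless stated. The shared cells held 44.2 CP10k of the myeloid lysozyme gene Lyz2, against 7.86 CP10k in the 386 others, and at least 5 UMIs of other cell types' markers were found in 35.4% of them, against 5.18%. All 15 genes of the microglia list were detected, 10 of them at 0.5 CP10k or more, with a median of 7 summed UMIs per cell and a 90th percentile of 107. The monocyte and macrophage list summed to 82.9 CP10k. The part of these RNAs in the results was not tested, and the counts over all genes and several of the lists are given with and without shared droplets. Median corrected UMIs per cell were 13121.5 in CD8 T cells of the brain with metastases, 9162 in those of the naive brain and 5882 in those from blood, each matrix having been corrected separately.

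The killing genes were uneven from cell to cell. Nkg7 was detected in 98.6% of the CD8 T cells, with a median of 20 UMIs and a highest value of 103, and Ccl5, a chemokine that draws T cells and myeloid cells, in 94.0%, with a median of 48 and a highest value of 1089. Gzmb, encoding granzyme B, was detected in 243 cells (47.1%) with a highest value of 208. Gzma, encoding granzyme A, was detected in 116 cells (22.5%) with a highest value of 455, and its 5 highest cells held 40.5% of its UMIs. Gzmk, the granzyme gene of a less differentiated effector state, was detected in 47.9% of cells but never above 16 UMIs. Microglia of the same matrix, which should lack them, had Gzmb in 2.4%, Gzma in 2.8% and Gzmk in 0.1% of cells at a median of 14210 corrected UMIs.

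**Figure D1:**
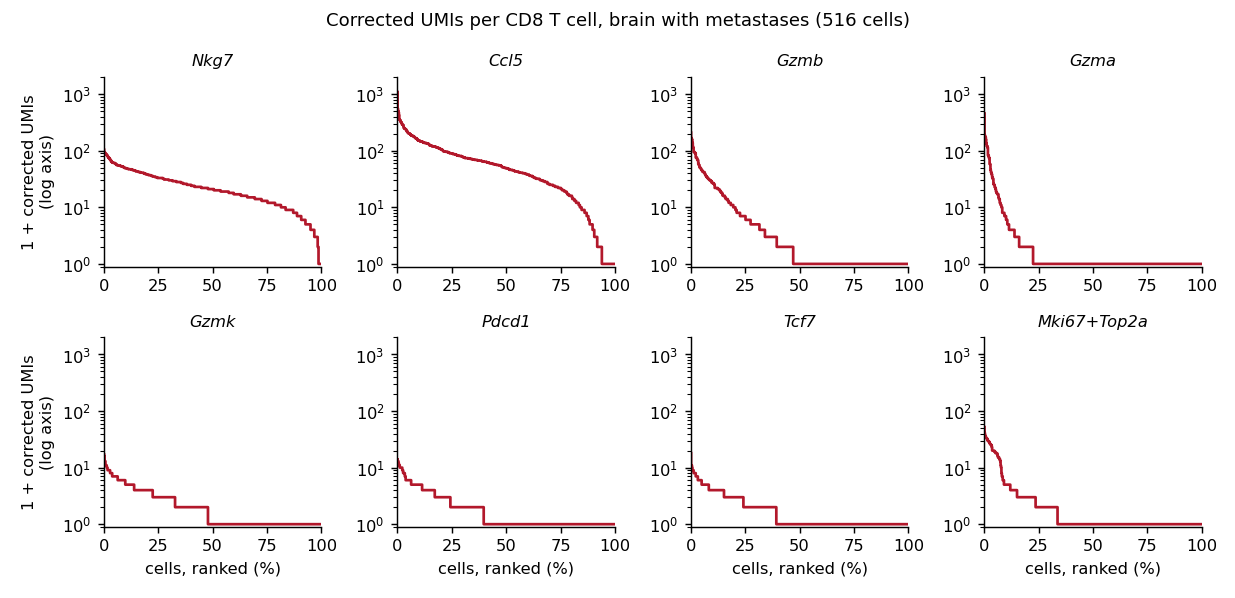
Corrected UMIs plus 1 (log axis) of each of the 516 CD8 T cells of the brain with metastases, ranked from highest to lowest and placed by percent of cells, for 7 genes and the sum of Mki67 and Top2a. Nkg7 and Ccl5 stay above 1 in nearly all cells, whereas Gzmb is detected in 47.1% and Gzma in 22.5%.

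None of the 3 granzyme genes was detected in 133 cells (25.8%, interval 22.1 to 29.8%), and all 3 in 55 (10.7%). Gzmk alone was found in 114 cells, Gzmb alone in 85 and Gzma alone in 16. Gzma went with Gzmb: it was detected in 37.0% of the 243 cells with Gzmb (interval 31.0 to 43.4%), against 9.52% of the 273 without (6.32 to 13.6%). Prf1, encoding perforin, was detected in 60.1% of cells with Gzmb and 38.1% of those without. Gzmk did not follow this pattern, being detected in 50.6% of cells with Gzmb and 45.4% of those without, with overlapping intervals. Tcf7 ran the other way and was detected in 26.3% of cells with Gzmb, against 50.9% of cells without.

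Lag3, an inhibitory receptor, went with Pdcd1 and was detected in 50.2% of the 205 cells with Pdcd1 (interval 43.2 to 57.3%), against 19.0% of the 311 without (14.8 to 23.8%). Tcf7 was detected in 27.8% of cells with Pdcd1 and 46.9% of those without. Cells with Pdcd1 had a median of 2949 detected genes, against 2533 without, and cells with Gzmb 2819, against 2567. Within the 258 cells with fewer detected genes, Gzma was still detected in 36.0% of cells with Gzmb, against 10.2%, and Pdcd1 in 57.1% of cells with Lag3, against 25.2%. In these 258 cells Lag3 had overlapping intervals in cells with Ctla4 (16.4 to 32.4%) and in cells without (13.7 to 27.6%). In the cells with more detected genes the intervals were apart, at 47.6 to 65.6% with Ctla4 and 19.1 to 34.7% without. Over all CD8 T cells Lag3 was detected in 40.7% of cells with Ctla4 (34.5 to 47.2%), against 23.1% without (18.2 to 28.5%). Without shared droplets these shares were 40.9% with Ctla4 and 20.2% without. These pairs were picked after their values were seen.

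**Figure D2:**
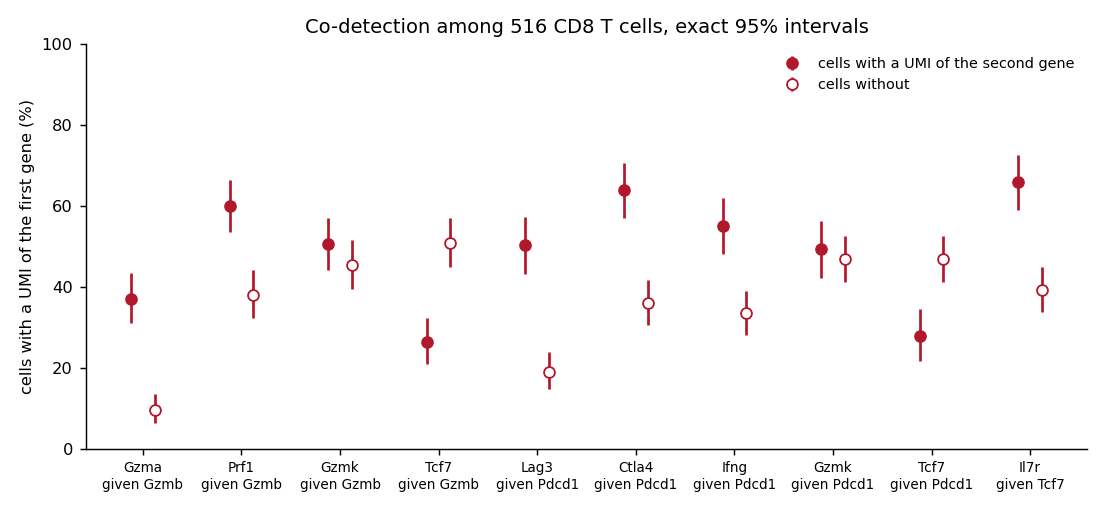
Percent of CD8 T cells of the brain with metastases with a UMI of the first gene, among cells with a UMI of the second gene (filled) and cells without (open), with exact 95% intervals. Gzma is detected in 37.0% of cells with Gzmb and 9.52% of cells without, while the intervals for Gzmk overlap.

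Set against CD4 T cells of the same brain, the 516 CD8 T cells held more RNA of most measured killer cell genes. Of 2893 genes at 0.5 CP10k or more on either side, 32 (1.11%) were past 2 fold higher in CD8 T cells and 47 (1.62%) past 2 fold lower, on a log2 scale with a pseudocount of 0.1 CP10k. Without shared droplets 39 (1.37%) were higher and 72 (2.52%) lower. Of 7 measured NK receptor genes, 5 were past 2 fold higher (median log2 ratio 2.02, against -0.08 over all genes), and of 12 cytotoxic genes, 6 were (median 0.95). Klrc1, encoding the inhibitory NKG2A chain, was at 1.26 CP10k in CD8 and 0.0931 CP10k in CD4 T cells. Prf1 was at 1.17 CP10k in CD8 and 0.152 CP10k in CD4 T cells. Gzmb was closer, at 6.55 CP10k in CD8 and 4.43 CP10k in CD4 T cells.

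The genes lower in CD8 T cells included those of regulatory and helper cells. Tnfrsf4, encoding the co-stimulatory receptor OX40, was at 0.344 CP10k in CD8 and 5.82 CP10k in CD4 T cells. Foxp3, the lineage factor of regulatory T cells, was at 0.0333 CP10k in CD8 and 0.935 CP10k in CD4 T cells. Of 22 measured interferon response genes, 20 had a ratio below 0, none of them past 2 fold (median -0.33). All 10 measured interferon gamma GTPases also had ratios below 0 (median -0.32). Without shared droplets, 21 of 23 interferon response genes were below 0, 2 of them past 2 fold (median -0.50), and all 10 GTPases were, 1 of them past 2 fold (median -0.44).

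Set against CD8 T cells of the naive brain, those of the brain with metastases had more Gzmb, Gzma, Tnfrsf9, Pdcd1 and Ctla4 RNA and less of Gzmk. Of 2827 measured genes, 16 (0.566%) were past 2 fold higher and 8 (0.283%) past 2 fold lower, and without shared droplets 41 (1.48%) of 2775 were higher and 10 (0.36%) lower. Of 12 measured cytotoxic genes 6 were above 0 and 6 below, 2 of them past 2 fold higher (median 0.03, against 0.04 over all genes). Of the naive CD8 T cells, 89.2% came from the microglia-depleted arm, so arm and tumour cannot be told apart in this comparison, which also crosses matrices that were normalized separately.

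Gzmb was at 6.55 CP10k in the brain with metastases and 2.29 CP10k in the naive brain, a log2 ratio of 1.48, and Gzma was at 4.11 CP10k in the brain with metastases and 1.99 CP10k in the naive brain. Gzmk was lower, at 1.09 CP10k in the brain with metastases and 2.06 CP10k in the naive brain. Prf1 was at 1.17 CP10k in the brain with metastases and 1.11 CP10k in the naive brain, and Ifng, encoding interferon gamma, at 1.58 CP10k in the brain with metastases and 1.51 CP10k in the naive brain, both within a log2 ratio of 0.07. Eomes, a transcription factor of effector and memory CD8 T cells, was at 0.515 CP10k in the brain with metastases and 1.07 CP10k in the naive brain.

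Among 6 measured checkpoint genes, 4 had ratios above 0, none past 2 fold (median 0.73, and 0.94 without shared droplets with 2 past 2 fold). Pdcd1 was at 0.853 CP10k in the brain with metastases and 0.396 CP10k in the naive brain. Ctla4, an inhibitory receptor that competes with CD28, was at 1.36 CP10k in the brain with metastases and 0.659 CP10k in the naive brain. Tnfrsf9, encoding the activation receptor 4-1BB, was at 0.735 CP10k in the brain with metastases and 0.153 CP10k in the naive brain, a log2 ratio of 1.72. Lag3 was at 0.722 CP10k in the brain with metastases and 0.382 CP10k in the naive brain, but microglia of the brain with metastases held 0.866 CP10k of it, and the part of microglial RNA in the Lag3 level was not tested. For Pdcd1, microglia held 0.197 CP10k and a UMI in 17.5% of cells, against 39.7% of the CD8 T cells.

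**Figure D3:**
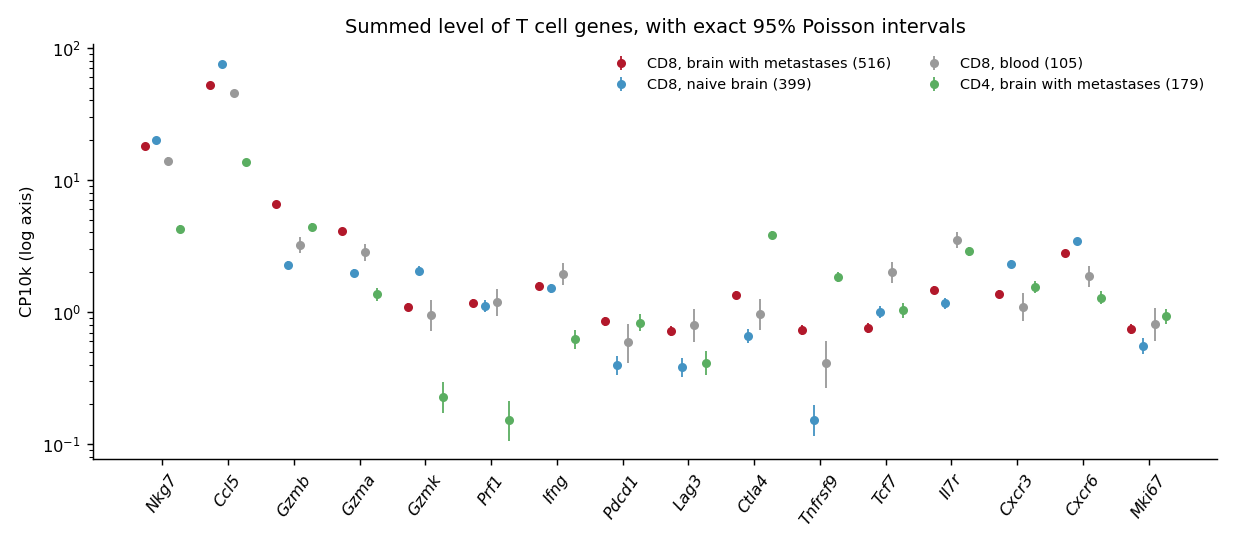
Summed level in CP10k (log axis) with exact 95% Poisson intervals for 16 genes in CD8 T cells of the brain with metastases, of the naive brain and of the blood, and in CD4 T cells of the brain with metastases, with the number of cells in brackets. Gzmb, Pdcd1 and Tnfrsf9 lie higher in CD8 T cells of the brain with metastases than of the naive brain, and Gzmk and Cxcr3 lie lower.

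Whole programmes were shifted by less than 2 fold for most members. All 10 measured cell cycle genes had ratios above 0 over the naive brain, 2 of them past 2 fold (median 0.53), and 4 without shared droplets (median 0.61). Of 20 interferon response genes 19 were above 0 (median 0.41, and 0.71 without shared droplets). All 12 glycolysis genes were above 0 (median 0.35), and Hif1a, the oxygen-regulated transcription factor, was at 1.51 CP10k in the brain with metastases and 0.673 CP10k in the naive brain. Of 12 chemokine receptor and integrin genes 11 were below 0 (median -0.27, and -0.39 without shared droplets), none of them past 2 fold. The other one, Ccr7, a lymph node homing receptor, was past 2 fold higher, at 0.859 CP10k in the brain with metastases and 0.353 CP10k in the naive brain. Cxcr3, a receptor for interferon-induced chemokines, was at 1.37 CP10k in the brain with metastases and 2.32 CP10k in the naive brain. All 13 measured microglia markers were below 0 (median -0.38). Of 14 monocyte and macrophage markers 9 were above 0 (median 0.07, and 0.34 without shared droplets with 10 of 12 above 0). Of 6 neutrophil markers 4 were above 0 (median 0.16, and 1.83 without shared droplets with 4 of 4 above 0).

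Not all of the highest ratios are T cell genes. The 3 measured haemoglobin genes of red blood cells were among the 16 past 2 fold higher (median 3.38), with Hbb-bs at 3.17 CP10k in the brain with metastases and 0.103 CP10k in the naive brain and 96.7% of its UMIs in 1 cell. Camp and Ngp, neutrophil granule genes, were at 4.97 and 3.06 CP10k in the brain with metastases, against 0.760 and 0.810 CP10k in the naive brain, but 5 cells held 99.1% of the Camp UMIs and 98.3% of the Ngp UMIs. Ptgds, expressed by brain lining cells, had 69.9% of its UMIs in 1 cell.

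**Figure D4:**
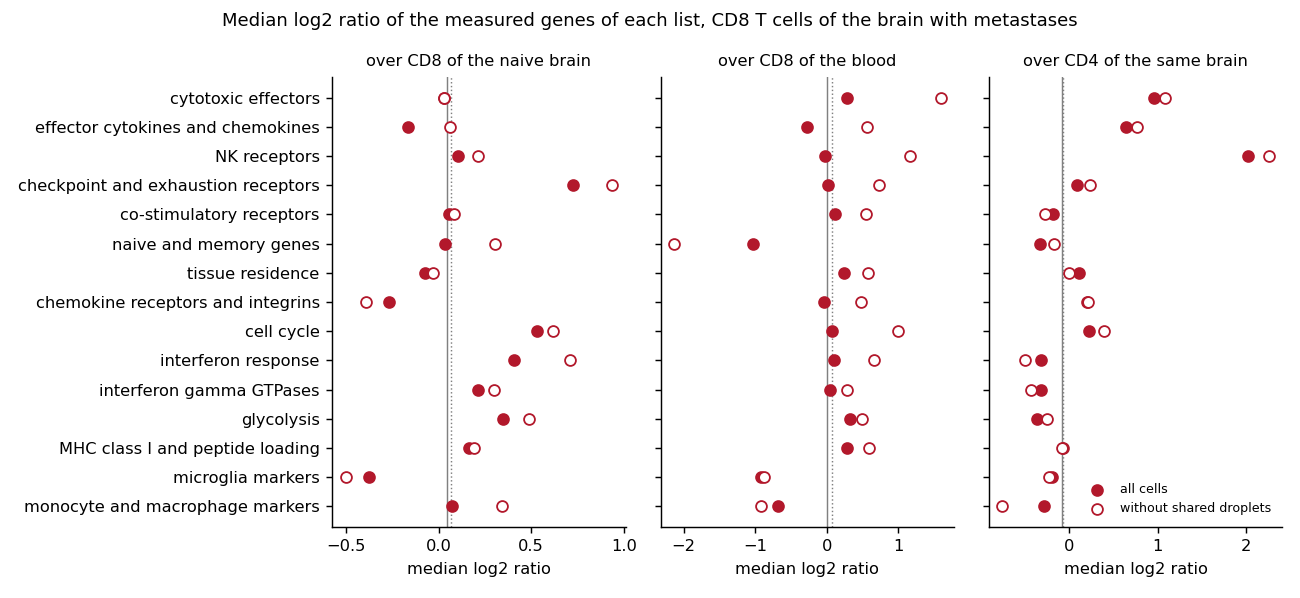
Median log2 ratio of the measured genes of 15 lists in CD8 T cells of the brain with metastases over CD8 T cells of the naive brain, CD8 T cells of the blood and CD4 T cells of the same brain, for all cells (filled) and without shared droplets (open), with the median over all genes as a grey line (dotted without shared droplets). Checkpoint genes lie at 0.73 over the naive brain, NK receptors at 2.02 over CD4 T cells, and naive and memory genes at -1.04 over the blood.

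Against the blood, the naive and memory genes were lower. Of 3092 measured genes, 5 (0.162%) were past 2 fold higher and 93 (3.01%) past 2 fold lower in the brain with metastases. The 5 included the 3 measured haemoglobin genes, and the lower ones included 6 of 8 neutrophil markers (list median -2.09), which summed to 31.2 CP10k in the brain with metastases and 124 CP10k in the blood. All 14 measured naive and memory genes had ratios below 0, and 7 were past 2 fold lower (median -1.04). Tcf7 was at 0.761 CP10k in the brain with metastases and 2.01 CP10k in the blood. This reference is weak, since 63.8% of the blood cells were shared droplets and 38 remained without them. With those left out, 150 genes (4.68%) were past 2 fold higher and 275 (8.58%) lower, the naive and memory median was -2.14, and the cytotoxic median was 1.59 in place of 0.28. Gzmb was then at 7.89 CP10k in the brain with metastases and 0.749 CP10k in the blood.

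Dividing cells were counted as those with 2 or more UMIs of Mki67 and Top2a, which are expressed in cycling cells. They were 122 of 516 CD8 T cells (23.6%, interval 20.04 to 27.6%), against 12.5% of those in the naive brain and 10.5% of those from blood. CD4 T cells of the same brain had nearly the same share as the CD8 T cells, with 44 of 179 (24.6%, interval 18.5 to 31.6%). The same limit was passed by 12.6% of microglia. The naive brain and blood cells had fewer corrected UMIs, and the part of depth in their lower shares was not tested. With 52 of the 516 cells at a sum of 1 and 44 at 2, the limit cuts through a continuum. At 2000 UMIs a cell the cycling share of the 516 cells was 6.40%, which cannot be set against the unthinned shares of the other groups. Cycling cells had a median of 3280.5 detected genes, against 2591.5 in the others.

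Of 2946 genes, 103 (3.5%) were past 2 fold higher and 12 (0.407%) past 2 fold lower in cycling cells, and without shared droplets 93 (3.22%) were higher and 7 (0.243%) lower. All 20 measured cell cycle genes were past 2 fold higher (median 2.66), Mki67 and Top2a not among them, and since those 2 genes chose the cells this supports nothing. Outside that list, Gzma was at 9.94 CP10k in cycling and 2.26 CP10k in other CD8 T cells, and Gzmb at 12.1 CP10k in cycling and 4.78 CP10k in other cells. In cycling cells 3 cells held 49.7% of the Gzma UMIs, and without the 3 highest cells of each side Gzma was at 5.13 CP10k in cycling and 1.43 CP10k in other cells, and Gzmb at 9.35 CP10k in cycling and 4.01 CP10k in other cells. The shares of cells with a UMI had overlapping intervals, at 27.9% of cycling and 20.8% of other cells for Gzma and 54.1% of cycling and 44.9% of other cells for Gzmb. Gzmk was at 1.14 CP10k in cycling and 1.07 CP10k in other cells, and Ifng at 1.59 CP10k in cycling and 1.58 CP10k in other cells. Of 12 naive and memory genes 11 had ratios below 0 (median -0.71), such as Ccr7 at 0.295 CP10k in cycling and 1.04 CP10k in other cells. Neutrophil markers summed to 80.0 CP10k in cycling and 15.8 CP10k in other cells, with the same median of 3 UMIs per cell. Of 5 measured neutrophil markers 4 were past 2 fold higher, as were the 2 measured endothelial markers. Tumour cell markers summed to 6.00 CP10k in cycling and 0.889 CP10k in other cells. The 12 lower genes included all 4 haemoglobin genes (median -3.16), of which Hbb-bs rests on the 1 cell named above.

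The promoters of cell cycle genes are shown because these genes were high together. Many such promoters carry a cell cycle homology region, TTTGAA, and CCAAT boxes. TTTGAA was searched first, and CCAAT was added after the sequences had been read. Counted on both strands within 250 bases before and 50 after the start, TTTGAA was in 8 of the 21 listed cell cycle genes with a RefSeq promoter (38.1%), against 20.2% of 27025 genes, and CCAAT in 17 (81.0%), against 41.1%. The last 100 bases before the start were looked at for 7 genes, of which 6 are cell cycle genes. Of these 6, Top2a, Cdk1 and Ube2c held TTTGAA, Ccnb2 and Pclaf held CCAAT only, and Birc5 held neither, as did Gzmb. The first 3 and Birc5 are printed 5′ to 3′ on the gene's strand, from RefSeq on GRCm38.p6, with either motif in capitals in either orientation. They lie at chr11:99024190-99024289 on the minus strand (Top2a), chr10:69352913-69353012 on the minus strand (Cdk1), chr2:164769829-164769928 on the plus strand (Ube2c) and chr11:117849137-117849236 on the plus strand (Birc5). A match is a description of letters and no evidence of binding.
Top2a: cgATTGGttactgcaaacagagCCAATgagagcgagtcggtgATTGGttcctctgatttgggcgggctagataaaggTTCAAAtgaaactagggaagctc
Cdk1: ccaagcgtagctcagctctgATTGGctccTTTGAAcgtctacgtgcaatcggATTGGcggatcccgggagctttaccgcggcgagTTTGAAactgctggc
Ube2c: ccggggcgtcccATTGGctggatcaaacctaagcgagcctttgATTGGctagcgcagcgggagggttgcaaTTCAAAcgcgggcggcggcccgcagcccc
Birc5: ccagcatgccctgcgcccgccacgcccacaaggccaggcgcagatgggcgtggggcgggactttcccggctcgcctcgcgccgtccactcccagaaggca

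Cells with at least 1 UMI of Pdcd1 were 205 of 516 (39.7%, interval 35.5 to 44.1%), against 21.1% of the naive brain CD8 T cells and 21.0% of those from blood. CD4 T cells of the same brain had a similar share to the CD8 T cells, with 65 of 179 (36.3%, interval 29.3 to 43.8%). The naive brain and blood cells had fewer corrected UMIs, and the part of depth in their lower shares was not tested. At 2000 UMIs a cell the share among the 516 cells was 14.0%, which cannot be set against the unthinned shares of the other groups. Of the Pdcd1+ cells 34.1% were cycling (interval 27.7 to 41.1%), against 16.7% of the other cells (12.7 to 21.3%).

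Of 2873 genes, 41 (1.43%) were past 2 fold higher and 20 (0.696%) past 2 fold lower in Pdcd1+ cells, and without shared droplets 57 (2.01%) were higher and 20 (0.706%) lower. The higher genes included effector and activation genes together. Gzma was at 8.06 CP10k in Pdcd1+ and 1.46 CP10k in other CD8 T cells, and Gzmb at 11.7 CP10k in Pdcd1+ and 3.08 CP10k in other cells. The 5 highest Gzma cells were all Pdcd1+ and held 51.5% of the Gzma UMIs of that group. Without the 5 highest cells of each side Gzma was at 4.01 CP10k in Pdcd1+ and 0.733 CP10k in other cells, and Gzmb at 8.96 CP10k in Pdcd1+ and 2.23 CP10k in other cells. Gzma was detected in 26.8% of Pdcd1+ and 19.6% of other cells and Gzmb in 52.7% of Pdcd1+ and 43.4% of other cells, in both cases with overlapping intervals. Tnfrsf9 was at 1.42 CP10k in Pdcd1+ and 0.278 CP10k in other cells. Ifng was at 2.68 CP10k in Pdcd1+ and 0.852 CP10k in other cells. Prf1 was at 2.05 CP10k in Pdcd1+ and 0.584 CP10k in other cells, whereas Gzmk was at 1.02 CP10k in Pdcd1+ and 1.14 CP10k in other cells. All 5 other measured checkpoint genes had ratios above 0, with 3 past 2 fold (median 1.14), and 9 of 15 cell cycle genes were past 2 fold higher (median 1.17). Of 11 naive and memory genes 10 were below 0 (median -0.62), with Lef1, a partner of Tcf7 in naive and memory cells, at 0.191 CP10k in Pdcd1+ and 0.671 CP10k in other cells. Camp and Ngp had the lowest ratios and rest on the few cells named above. Microglia markers summed to 31.1 CP10k in Pdcd1+ and 29.1 CP10k in other cells. Monocyte and macrophage markers summed to 72.2 CP10k in Pdcd1+ and 90.1 CP10k in other cells. Neutrophil markers summed to 10.9 CP10k in Pdcd1+ and 44.8 CP10k in other cells, and tumour cell markers to 0.664 CP10k in Pdcd1+ and 3.09 CP10k in other cells.

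**Figure D5:**
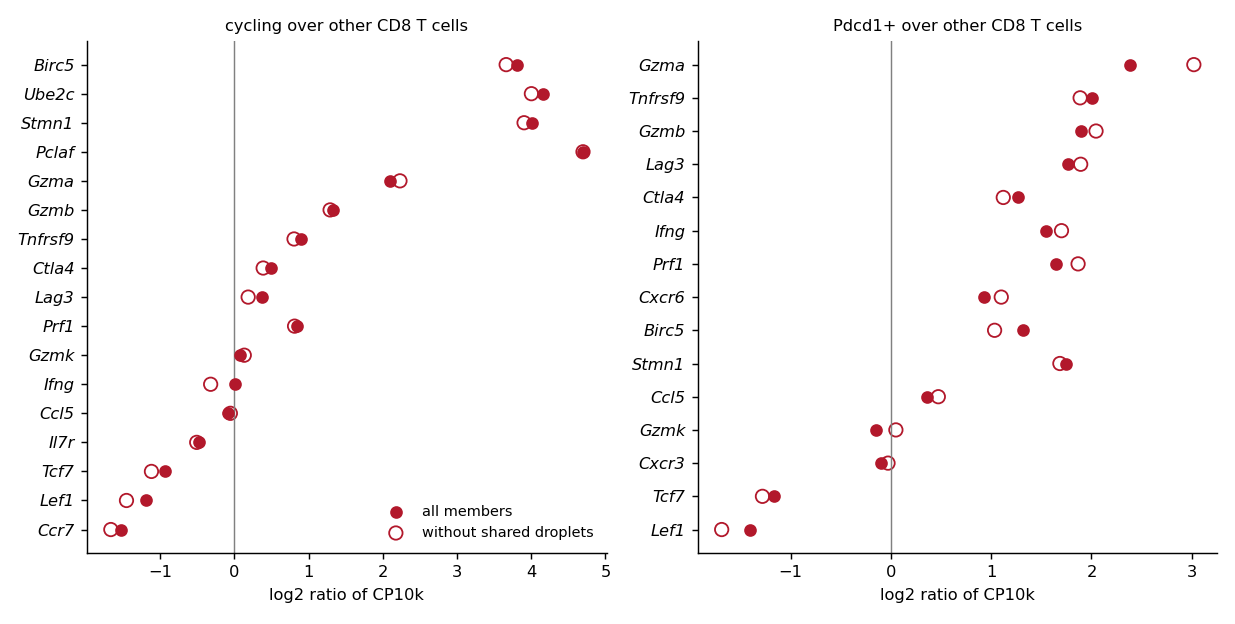
Log2 ratio of CP10k for selected genes in cycling over other CD8 T cells (left) and in Pdcd1+ over other CD8 T cells (right), for all members (filled) and without shared droplets (open), the genes having been picked with their values known. Gzma and Gzmb lie to the right of 0 in both panels, Gzmk lies near 0, and Tcf7 and Lef1 lie to the left.

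T cell receptor V segments gave a view of the cells that the rule did not use. The 3′ assay rarely reads them: any Trbv was detected in 107 cells (20.7%) and any Trav in 98 (19.0%). The most frequent was Trav7-5, an alpha chain V segment, in 27 cells, of which 25 were not shared droplets. The next Trav genes, Trav3-3 and Trav16, were in 9 cells each. Among beta chain segments Trbv12-2 was in 21 cells and Trbv14 in 14. Trav7-5 was found in 5 of 399 CD8 T cells of the naive brain and 0 microglia.

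The cells with Trav7-5 stood out in several genes of cell state. Pdcd1 was detected in 25 of 27 (92.6%, interval 75.7 to 99.1%), against 36.8% of the 489 others, and Gzmb in 24 of 27 (88.9%), against 44.8%. Gzmb was at 27.5 CP10k in cells with Trav7-5 and 5.35 CP10k in the others. Tcf7 was detected in 3 of 27 (11.1%), against 40.9%. Il7r, another gene of memory cells, did not share this direction, being detected in 63.0% of cells with Trav7-5 and 49.1% of the others. Tox, a transcription factor gene, was detected in 44.4% of both. Lyz2 was at 5.06 CP10k in cells with Trav7-5 and 18.1 CP10k in the others, and the part of RNA of other cells in these contrasts was not tested. The 14 cells with Trbv14 had Gzmb in 12 and Pdcd1 in 11, and 6 cells held both Trav7-5 and Trbv14. Of the 21 cells with Trbv12-2, 8 had Gzmb (38.1%, interval 18.1 to 61.6%), against 47.5% of the others (43.0 to 52.0%). Pdcd1 was detected in 11 of these 21 (52.4%, interval 29.8 to 74.3%), against 39.2% of the others (34.9 to 43.6%). For both genes the intervals overlapped. Cells with Trav7-5 had a median of 3634 detected genes, against 2623 in the others, and the part of this in the detection shares was not tested. These segments were picked from their counts, no clonotype was assembled, and all cells come from 1 pool of mice.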

How the data were processed

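RNA, antibody tag and hashtag libraries of 1 pool of 8 hashed samples were deposited by the authors as 3 matrices. The values are the natural log of 1 plus a depth-corrected UMI count, as seen from the deposited values, which were whole numbers within 1e-06 once the log was undone. Raw counts of UMIs per cell, and surface gates, come from the annotation the authors deposited for the naive brain and blood, in which 54 columns were not used. Per the submitters' processing notes, Cell Ranger 3.1, Seurat 3.1.1 and mm10 were used. Corrected UMIs were summed over cells and scaled to 10000 (CP10k). Log2 ratios used a pseudocount of 0.1 CP10k and genes at 0.5 CP10k or more on either side. Python 3.11.15, NumPy 2.4.6, SciPy 1.17.1 and pandas 2.3.3 were used. All deposited cells were kept and no doublet caller was run, since raw counts per gene were not used.

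Members and gene lists were chosen with earlier results of these data known. Genes named were list members, the 12 highest and 12 lowest ratios per comparison, the 20 highest levels and the most frequent V segments. Co-detected pairs, the concentration of UMIs in few cells, V segment cells and both promoter motifs were chosen after values were seen. On simulated cells with 2682 genes, all genes changed 4 fold or 8 fold were past 2 fold in the comparison with CD4 T cells. These changes lay well past the limit, so the simulation checks the ratio step only. RNA of other cells, shared droplets and genes held by a few cells were not simulated. Results for some items named in the plan are not reported here.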

Additional observations from a re-analysis of the deposited data

How the results depend on the processing

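Without shared droplets, genes past 2 fold numbered 72 lower against CD4 T cells, 41 higher against the naive brain, 150 higher and 275 lower against the blood, and 7 lower in cycling cells. With a pseudocount of 0.5 CP10k they numbered 14 higher and 22 lower against CD4 T cells, 6 higher against the naive brain, 2 higher and 30 lower against the blood, 61 higher in cycling cells, and 17 higher and 12 lower in Pdcd1+ cells. With no minimum level they numbered 54 higher and 80 lower against CD4 T cells, 14 higher and 176 lower against the blood, 264 higher and 24 lower in cycling cells, and 79 higher and 34 lower in Pdcd1+ cells. Under the stricter rule they numbered 5 lower against the naive brain, 3 higher against the blood, 7 lower in cycling cells and 13 lower in Pdcd1+ cells. Without cells holding 5 or more UMIs of other types they numbered 3 lower against the naive brain and 16 higher against the blood, and the medians or ratios against the blood turned to 1.01 for the neutrophil list, 1.01 for S100a8 and 0.90 for S100a9. Thinned to 2000 corrected UMIs, the shares were 6.40% cycling and 14.0% Pdcd1+ cells, and thinning corrected UMIs does not remove differences in raw depth. The NK receptor median in cycling cells was -0.054 with no minimum level, and the microglia median in cycling cells was 0.14 without shared droplets. The cause was not tested. The limit on cell depth removed no cell, so its values equal the main ones. They are counted among those that stayed close and are no check. Another 68 counts and shares, 823 list medians and 9323 gene ratios stayed close to the values given. A further 55 list medians and 307 gene ratios moved. A change of sign was counted apart only for values past a set limit in the main setting, so some that moved also changed sign. Against the blood, the effector cytokine and chemokine median went from -0.28 to 0.56 without shared droplets, and the NK receptor median from -0.02 to 1.16. No paired analysis was possible because the cells of the brain with metastases form 1 pooled sample.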
